A study of Homo sapiens with 10 samples.

Results

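The brush border and absorptive enterocyte genes described here were VIL1, CDH17, ANKS4B, USH1C, MYO1A, EZR, CDX1, CDX2, HNF4A and SLC51B. A member was measured where the array annotation gave a probe to that gene symbol alone, and where a gene had several such probes the brightest on average stood for it. By that rule 8 of the 10 had a value, among 14232 genes with such a probe, and each of the 8 measured genes had 1 probe. MYO1A, the brush border myosin, was covered by a probe shared with TAC3, so no value is given for it. HNF4A, a nuclear receptor of liver and gut epithelium, was not analysed here. They were measured in DLD-1, an established human colorectal cancer cell line, with and without short hairpin RNAs (shRNAs) against LMNB1, the gene of the nuclear lamina protein lamin B1. The title of the study places its question in S-phase length and chromosome territories after lamin B1 loss. The 10 arrays fell into 4 groups. Wild type DLD-1 cells, with no transfection and no puromycin, gave 1 array. The empty vector group held 3 clones, the V2LHS_62673 group held clones 8, 9 and 12 carrying that LMNB1 shRNA, and these 6 were kept under puromycin. The V2LHS_62675 group, also under puromycin, held 3 arrays of a single clone carrying the other LMNB1 shRNA. The design text calls it clone 2 and its arrays replicates of 1 clone, whereas the sample titles call it clone 12 and its arrays biological replicates. Its 3 arrays were averaged and counted as 1 sample, which left 8 samples at the level of clones. Each knockdown line came from a single cell, so a construct and the history of its clones cannot be told apart. In RNA from whole cultures, fewer cells expressing a gene and less RNA per cell cannot be told apart either.

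Absorptive enterocytes carry a brush border, a dense lawn of apical microvilli built on bundled actin filaments. Villin (VIL1) bundles and severs that actin, ezrin (EZR) ties it to the membrane, and harmonin (USH1C) and ANKS4B belong to the complex that links neighbouring microvilli at their tips. CDH17 is the liver-intestine cadherin of the lateral membrane, and SLC51B is the beta subunit of the basolateral exporter of bile acids and steroids. CDX1 and CDX2 are homeobox transcription factors that set intestinal identity, and CDX2 is widely used to mark tumours of intestinal origin.

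Promoters are shown for the 3 members that lay above every empty vector array in each array of V2LHS_62675: SLC51B, the bile acid exporter subunit, ANKS4B, the tip-link scaffold, and EZR, the membrane linker. Of all features tested, 13.3% did the same, so this only sets which promoters are printed. ANKS4B passed the filter on low signal, described below, only through the knockdown samples. Each sequence is the 250 bases before the transcription start in RefSeq on GRCh38.p14, at chr15:65045137-65045386 on the plus strand for SLC51B, chr16:21233449-21233698 on the plus strand for ANKS4B and chr6:158818236-158818485 on the minus strand for EZR. Capitals mark a match to a searched motif.
SLC51B: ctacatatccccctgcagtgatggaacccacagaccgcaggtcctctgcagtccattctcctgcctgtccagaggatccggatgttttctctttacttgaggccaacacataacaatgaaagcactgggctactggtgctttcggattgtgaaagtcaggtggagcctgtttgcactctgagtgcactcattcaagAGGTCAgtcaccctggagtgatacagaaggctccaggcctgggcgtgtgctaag
ANKS4B: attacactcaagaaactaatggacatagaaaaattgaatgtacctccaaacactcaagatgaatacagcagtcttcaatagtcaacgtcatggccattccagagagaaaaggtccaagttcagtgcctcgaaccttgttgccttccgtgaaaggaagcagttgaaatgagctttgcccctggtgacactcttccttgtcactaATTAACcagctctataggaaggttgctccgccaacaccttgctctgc
EZR: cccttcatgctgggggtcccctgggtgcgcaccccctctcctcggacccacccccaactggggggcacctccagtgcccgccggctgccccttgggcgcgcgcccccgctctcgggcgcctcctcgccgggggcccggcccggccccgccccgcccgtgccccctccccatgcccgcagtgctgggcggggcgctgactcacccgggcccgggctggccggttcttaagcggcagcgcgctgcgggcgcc

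The motifs searched on both strands were TTTAT, bound by CDX proteins, AGGTCA, the half-site of nuclear receptors, and GTTAAT, a half-site of HNF1. None of the 3 overlaps another in these windows. The SLC51B window held 1 AGGTCA, 54 to 49 bases before the start, and AGGTCA was present in 12.1% of 35116 windows of the same length. The ANKS4B window held 1 GTTAAT on the reverse strand, read as ATTAAC 47 to 42 bases before the start, and GTTAAT was present in 6.2% of those windows. TTTAT, present in 32.7% of the windows, was in none of the 3, and the EZR window, 80.8% G and C, held none of the motifs. These are matches of letters in a window, and binding was not measured.

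Values below are the deposited log2 levels, and every difference is a difference of log2 levels. LMNB1 was measured only through a probe shared with PCIF1, and that probe read between 8.84 and 9.52 in the wild type and empty vector arrays and between 7.45 and 7.79 in the 6 knockdown arrays, with no overlap. Clone 8 of V2LHS_62673 stood apart from the other arrays over all genes. Its median level was 7.62 against 7.34 to 7.41 elsewhere, its correlations with the other arrays were 0.915 to 0.926, and it lay outside the range of the other 7 samples for 81.6% of genes. Tests were therefore run with clone 8 and without it. Of 10 epithelial markers 9 had a probe and these 9 passed the filter on low probes, with a mean level of 9.98 to 10.41. The filter kept genes whose mean was at least 5.96, the 25th percentile of all probes. Enteroendocrine markers averaged 6.52 to 6.72 in the other 9 arrays and 7.19 in clone 8, goblet markers 6.79 to 7.16 and 7.36, and crypt stem markers 8.10 to 8.37 and 8.35. Leukocyte markers averaged 5.85 to 5.98 in the other 9 arrays and 6.35 in clone 8, endothelial markers 6.15 to 6.32 and 6.83, and fibroblast markers 5.45 to 5.63 and 6.04. The part of these shifts in the values of clone 8 was not tested.

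**Figure D1:**
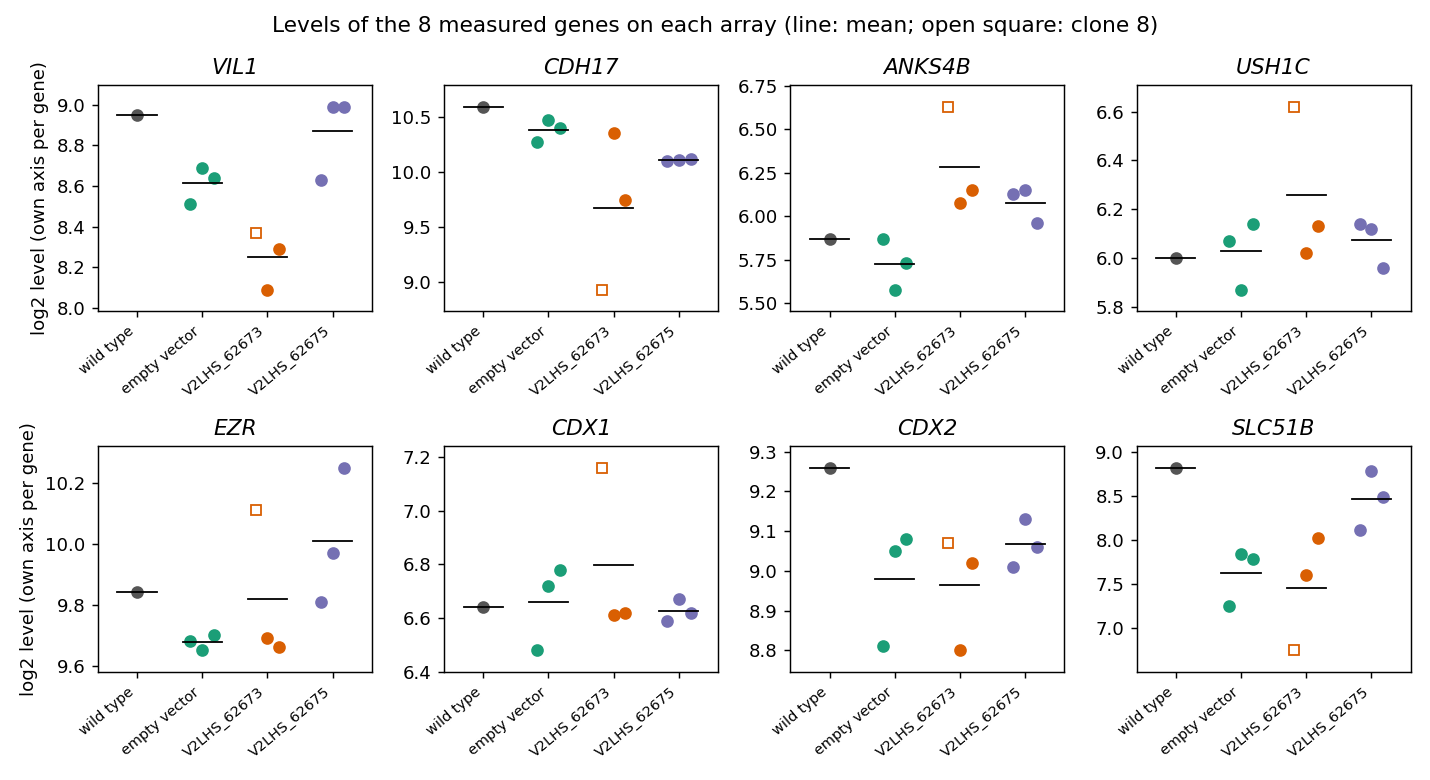
Deposited log2 level of each of the 8 measured genes (vertical axes, a separate scale per gene) in the wild type array, the 3 empty vector clones, clones 8, 9 and 12 of V2LHS_62673 and the 3 arrays of the single V2LHS_62675 clone; each point is 1 array, lines are group means and open squares are clone 8. VIL1 lies between 8.09 and 8.37 in the V2LHS_62673 clones and between 8.63 and 8.99 in the V2LHS_62675 arrays, and SLC51B runs from 6.75 in clone 8 to 8.82 in wild type.

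VIL1, the actin bundler of the microvillus, was measured at 8.95 in wild type and at 8.51, 8.69 and 8.64 in the empty vector clones. It was 8.37, 8.09 and 8.29 in clones 8, 9 and 12 of V2LHS_62673, and 8.63, 8.99 and 8.99 in the 3 arrays of V2LHS_62675. The V2LHS_62673 clones were therefore all below the empty vector clones, whereas the V2LHS_62675 arrays were all above the V2LHS_62673 clones and overlapped the empty vector clones only through the first array. The V2LHS_62675 clone minus the V2LHS_62673 clones was 0.62 (SE 0.21, 95% interval 0.12 to 1.11), with a Benjamini-Hochberg adjusted p of 0.931 in limma over all 8 samples. Without clone 8 the same difference was 0.68 (SE 0.14, 95% interval 0.37 to 0.98, adjusted p = 0.0391 in limma), a 1.60-fold higher level in V2LHS_62675. That call was lost without empty vector clone 2 (adjusted p = 0.0793) or 3 (0.085), without clone 9 (0.58, adjusted p = 0.0832), and without the second V2LHS_62675 array (0.0641) or the third (0.0733). It was also lost under quantile normalization (0.65, adjusted p = 0.0572), median centring (0.69, 0.054) and with no filter (0.0538). Against the empty vector clones alone, VIL1 in V2LHS_62673 without clone 8 differed by -0.42 (SE 0.10, adjusted p = 0.0833 in limma), and with clone 8 by -0.36 (SE 0.15, adjusted p = 0.742), past the unadjusted threshold and not the adjusted one in both. The epithelial markers leaned the same ways as VIL1 without clone 8: 9 of 9 tested were below 0 in V2LHS_62673 minus empty vector (median -0.21) and 8 of 9 above 0 between the constructs (median 0.24). Their part in the VIL1 differences was not tested.

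EZR, the actin-membrane linker, was at 9.84 in wild type and at 9.68, 9.65 and 9.70 in the empty vector clones. It was 10.11, 9.69 and 9.66 in clones 8, 9 and 12, and 9.81, 9.97 and 10.25 in the V2LHS_62675 arrays. The V2LHS_62675 arrays lay above every empty vector clone, clones 9 and 12 lay among them, and clone 8 was as high as V2LHS_62675. The V2LHS_62675 clone minus the empty vector clones was 0.33 (SE 0.24, adjusted p = 1 in limma), and without clone 8 the same 0.33 had an SE of 0.11 and an adjusted p of 0.134. The 3 arrays of that 1 clone spanned 0.43, more than the 0.05 over the 3 empty vector clones.

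CDH17, the liver-intestine cadherin, was at 10.59 in wild type and at 10.27, 10.47 and 10.40 in the empty vector clones. It was 8.93, 10.35 and 9.74 in clones 8, 9 and 12, and 10.10, 10.11 and 10.12 in the V2LHS_62675 arrays. Clone 8 was lowest, clone 12 next and V2LHS_62675 just under every control, while clone 9 was inside the control range. The 4 knockdown clones minus the 4 controls gave -0.65 (SE 0.27, 95% interval -1.25 to -0.05, adjusted p = 0.761 in limma), and without clone 8 the difference was -0.36 (SE 0.14, adjusted p = 0.751). One library thus moved the value by more than 1.5 times, and clones of the same construct differed from each other by more than the controls did.

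The tip-link scaffold ANKS4B was at 5.87 in wild type and at 5.87, 5.58 and 5.73 in the empty vector clones. It was 6.63, 6.08 and 6.15 in clones 8, 9 and 12, and 6.13, 6.15 and 5.96 in the V2LHS_62675 arrays. Every knockdown array was above every control array, with clone 8 highest. The knockdown clones minus the controls gave 0.47 (SE 0.16, 95% interval 0.13 to 0.82, adjusted p = 0.761 in limma) with clone 8 and 0.34 (SE 0.09, adjusted p = 0.646) without it. ANKS4B passed the filter at 5.96 only through the knockdown samples: its mean was 5.76 over the controls, 6.0 over all 8 samples and 5.91 without clone 8. Its partner USH1C, harmonin, was at 6.0 in wild type, 6.07, 5.87 and 6.14 in the empty vector clones, 6.62, 6.02 and 6.13 in clones 8, 9 and 12, and 6.14, 6.12 and 5.96 in V2LHS_62675. Only clone 8 left the control range, and the knockdown minus control difference of 0.19 (SE 0.16) became 0.06 (SE 0.08, 95% interval -0.13 to 0.24) without it. Both genes lay close to the filter level.

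SLC51B, the bile acid exporter subunit, varied most. It was at 8.82 in wild type and at 7.25, 7.84 and 7.79 in the empty vector clones. It was 6.75, 7.60 and 8.02 in clones 8, 9 and 12, and 8.11, 8.78 and 8.49 in the V2LHS_62675 arrays. Wild type and the V2LHS_62675 clone were thus both above every empty vector and V2LHS_62673 clone, although one carries no shRNA and the other does. Wild type minus the empty vector clones was 1.19 (SE 0.48, adjusted p = 1 in limma) over all samples. Without clone 8 it was 1.19 (SE 0.22, 95% interval 0.70 to 1.69, adjusted p = 0.0243 in limma), 2.29-fold higher in wild type. This rested on 1 wild type array, assumed to vary like the other groups, and was lost without empty vector clone 2 (1.30, adjusted p = 0.067) or 3 (1.28, adjusted p = 0.102). It was also lost with a trended robust prior (0.0602), with each array as a sample (0.0781) and with clone as a random block (0.0698). The V2LHS_62675 clone minus the same empty vector clones was 0.83 (SE 0.22, 95% interval 0.34 to 1.33, adjusted p = 0.0696) without clone 8 and 0.83 (SE 0.48, adjusted p = 1) with it. Over the 4 knockdown clones and 4 controls SLC51B differed by -0.22 (SE 0.39), which turned to 0.10 (SE 0.33) without clone 8.

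CDX2, the intestinal master regulator, was at 9.26 in wild type, 8.81, 9.05 and 9.08 in the empty vector clones, 9.07, 8.80 and 9.02 in clones 8, 9 and 12, and 9.01, 9.13 and 9.06 in V2LHS_62675. Wild type was highest and the other groups overlapped. The knockdown clones minus the controls gave -0.06 (95% interval -0.36 to 0.24), which turned positive against the empty vector clones alone (0.01) and was -0.09 (95% interval -0.35 to 0.17) without clone 8, and the V2LHS_62675 clone minus the empty vector clones gave 0.09 (95% interval -0.43 to 0.61). CDX1 was at 6.64 in wild type, 6.48, 6.72 and 6.78 in the empty vector clones, 7.16, 6.61 and 6.62 in clones 8, 9 and 12, and 6.59, 6.67 and 6.62 in V2LHS_62675. Outside clone 8 every CDX1 value lay within the range of the empty vector clones. The CDX1 difference between knockdown clones and controls was 0.10 (95% interval -0.25 to 0.45), and it turned to -0.02 under quantile normalization and to -0.03 without clone 8 (95% interval -0.23 to 0.16). These intervals allow shifts of either sign.

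The members were next counted in each comparison, beside the 11199 features tested (11198 genes and the probe shared by LMNB1 and PCIF1). For knockdown clones minus controls over all clones, 0 of the 8 members passed limma's adjusted threshold of 0.05, as did 0% of features. The probe shared by LMNB1 and PCIF1 did not pass either (-1.46, SE 0.17, adjusted p = 0.0603 in limma), nor without clone 8 (-1.51, adjusted p = 0.0563). A count of 0 in this comparison therefore does not show that the members were unchanged. At an unadjusted p under 0.05 there were 2 members, CDH17 and ANKS4B, against 2.29% of features. ANKS4B had entered the test only through the samples in which it was high, so nothing is read from its place in this and the later counts. ANKS4B was the 1 member whose groups did not overlap in the higher direction, against 1.59% of features, and 0 members did so in the lower direction, against 1.54%. Of the 8 members 4 lay above 0, as did 56% of features, with a median of 0.02 beside 0.04 over all genes. Without clone 8 the count passing stayed at 0, with 0% of features called, 2 members at an unadjusted p under 0.05 against 6.46%, and a median of 0.01 beside 0.00. ANKS4B again did not overlap in the higher direction, against 3.44% of features, 0 members did so in the lower direction, against 2.66%, and 4 lay above 0, against 51.9%.

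For V2LHS_62673 minus empty vector, 0 members and 0% of features passed with all clones. VIL1 and ANKS4B had an unadjusted p under 0.05, against 3.21% of features. ANKS4B was higher and VIL1 lower with no overlap, where 5.8% and 7.95% of features were, and 4 of the 8 members lay above 0, against 55.2% of features. Without clone 8, 0 members passed while 0.991% of features did, and VIL1 and ANKS4B were at an unadjusted p under 0.05, against 15.9%. ANKS4B stayed higher and VIL1 lower with no overlap, against 15% and 17.3% of features, and 3 members lay above 0, against 49.8%. For the V2LHS_62675 clone minus empty vector, 0 members and 0% of features passed with all clones, and 0 members were at an unadjusted p under 0.05, against 2.64%. In the 3 arrays of that clone ANKS4B, EZR and SLC51B were above and CDH17 below every empty vector clone, against 13.3% and 13.6% of features. Of the 8 members 6 lay above 0, against 56.4% of features, with a median of 0.17 beside 0.02 over all genes, and without clone 8 still 0 members passed while 3.74% of features did; SLC51B, EZR and ANKS4B then had an unadjusted p under 0.05, against 18.2% of features.

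For wild type minus empty vector, 0 members and 0% of features passed with all clones, and SLC51B alone had an unadjusted p under 0.05, against 2.59%. Of the 8 members, 6 were above every empty vector clone in the 1 wild type array, where 30.1% of features were (30.4% were below them): VIL1, CDH17, ANKS4B, EZR, CDX2 and SLC51B, with ANKS4B above by less than the printed precision. The other two members, USH1C and CDX1, overlapped the empty vector clones, with differences of -0.03 and -0.02 that both turned to 0.01 under median centring, and 48.2% of features lay above 0. Without clone 8, SLC51B passed, where 3.57% of features did, and SLC51B and VIL1 were at an unadjusted p under 0.05, against 19.7%. For the V2LHS_62675 clone minus V2LHS_62673, 0 members and 0% of features passed with all clones, and VIL1 alone had an unadjusted p under 0.05, against 2.22%. SLC51B and VIL1 were higher with no overlap, against 7.89% of features, and 0 members were lower, against 6.94%. Of the 8 members 5 lay above 0, where 45.1% of features did. Without clone 8, VIL1 passed, where 2.15% of features did, and EZR joined the members with no overlap, against 17.4% of features higher and 14.7% lower. Then VIL1, SLC51B and EZR were at an unadjusted p under 0.05, against 15.2%, and 7 of the 8 members lay above 0, against 55.5%. The shares of features called without clone 8 themselves moved with single arrays. The counts behind them spanned 4 (without empty vector clone 3) to 493 (without empty vector clone 1) for V2LHS_62673, where 111 were called. They spanned 70 (without empty vector clone 3) to 1017 (without V2LHS_62675 array 1) for V2LHS_62675, where 419 were called. For wild type, with 400 called, they spanned 18 (without empty vector clone 3) to 746 (without clone 9 or 12). Between the constructs, with 241 called, they spanned 69 (without empty vector clone 2) to 956 (without V2LHS_62675 array 1). The comparisons share samples, so their values are set side by side and are not independent of each other.

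**Figure D2:**
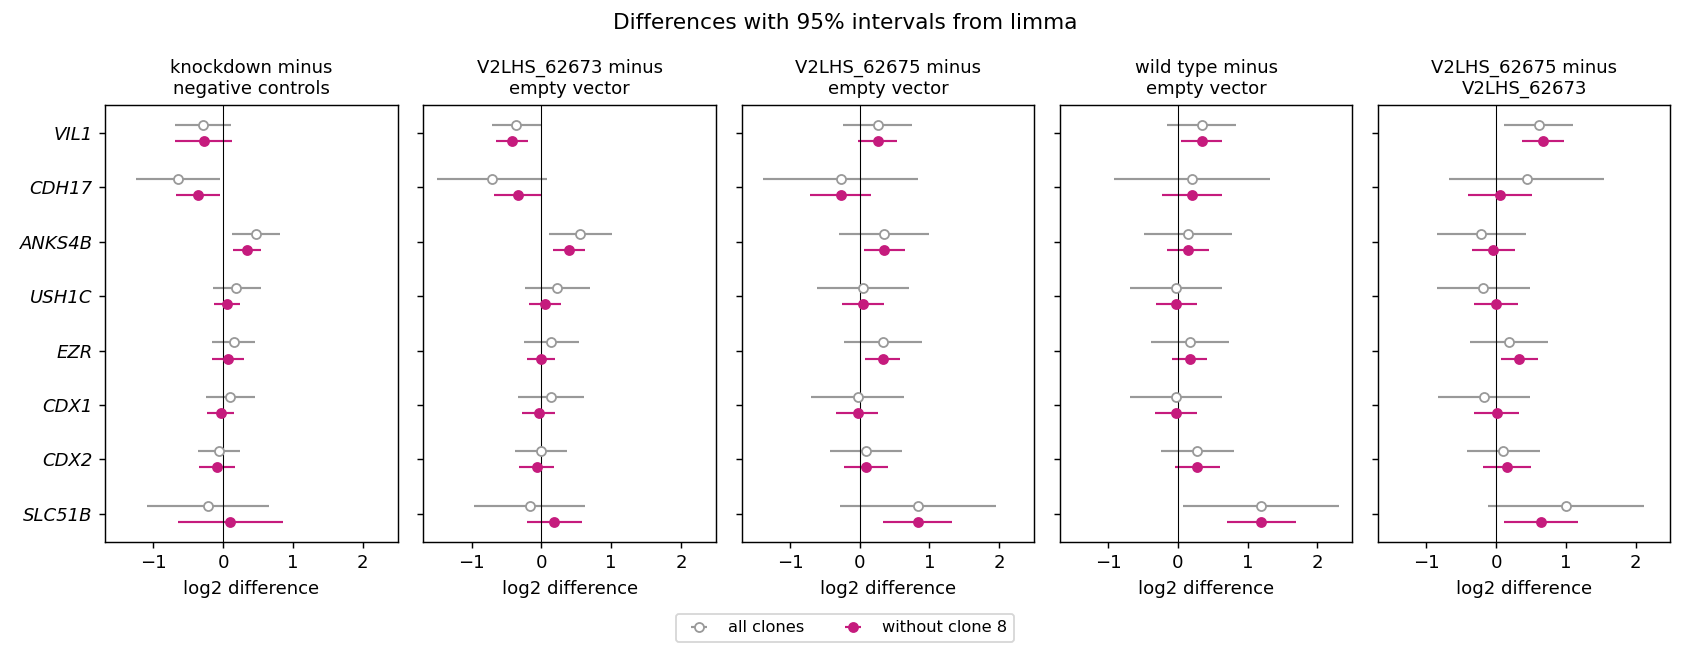
Differences in log2 level (horizontal axis) of the 8 measured genes in the 5 comparisons, 1 panel each, with unadjusted 95% intervals from limma, for all clones and without clone 8. The intervals narrow without clone 8, except that of VIL1 for knockdown minus negative controls. Those of SLC51B for wild type minus empty vector (0.70 to 1.69) and of VIL1 for V2LHS_62675 minus V2LHS_62673 (0.37 to 0.98) then lie above 0. Both also lie above 0 with all clones, and further intervals without clone 8 exclude 0 on either side.

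The members did not vary to the same degree. Over the 7 samples other than clone 8, SLC51B spanned 1.57, a wider range than 99.4% of genes, VIL1 spanned 0.86 (94.6%) and CDH17 0.85 (94.4%). ANKS4B spanned 0.57, CDX2 0.46, EZR 0.36, CDX1 0.30 and USH1C 0.27, where the median gene spanned 0.36. Clone 8 lay above the other 7 samples for 4 members (ANKS4B, USH1C, EZR and CDX1) and below them for 2 (CDH17 and SLC51B). Over all genes it lay outside their range for 81.6%, so the members are not set apart by this. Clone 8 minus the mean of the others was -1.35 for CDH17, -1.21 for SLC51B, 0.72 for ANKS4B, 0.58 for USH1C and 0.52 for CDX1. Over all genes the 10th and 90th percentiles of that difference were -1.10 and 0.81, so CDH17 and SLC51B lay beyond the lower one and no member lay beyond the upper one.

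Across the 7 samples SLC51B followed CDX2 (Pearson's r = 0.874), EZR (0.709) and VIL1 (0.667), and VIL1 followed CDX2 (0.778) and EZR (0.638). SLC51B was little related to CDX1 (0.268), ANKS4B (0.157), CDH17 (0.096) and USH1C (-0.083). VIL1 had lower values with CDH17 (0.414) and CDX1 (0.240) and negative ones with USH1C (-0.220) and ANKS4B (-0.425). How many of all genes reach such values was not counted. Over all genes, the profiles most like SLC51B by Pearson's r were IPO4 (0.971), GEMIN4 (0.962) and RRP12 (0.961). The profiles most like VIL1 were RAB9A (0.988), EIF3J (0.987) and CLIC1 (0.984). These correlations describe 7 samples that share array processing, and the leading genes were the highest among all genes tested.

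Further enterocyte genes were described from 5 lists with 199 entries, none of them a member. Only entries with a probe of their own that passed the filter on low signal were tested. With all clones, limma called 0 of their tested genes in any of the 5 comparisons, and the values that follow are without clone 8. Of 27 tested genes of microvillus structure and adhesion, 1 rose: MISP, an actin-binding protein, from 7.88, 8.00 and 8.09 in the empty vector clones to 8.51, 8.70 and 8.71 in V2LHS_62675 (0.65, adjusted p = 0.0216), where 1.54% of features were called higher and 2.21% lower. Wild type, at 8.48, was also above every empty vector clone for MISP (0.48, adjusted p = 0.0586). Clones 8, 9 and 12 of V2LHS_62673, at 8.68, 8.15 and 8.10, were above them too, so the rise was not particular to V2LHS_62675. Of 32 listed brush border enzymes and surface proteins, 24 had such a probe and only 8 passed the filter. Among these 8, 1 fell: MUC13, a transmembrane mucin, from 7.21, 7.98 and 7.75 to 6.23, 6.19 and 6.17 (-1.45, adjusted p = 0.0193). MUC13 in wild type, at 6.85, was also below every empty vector clone. The other tested genes of both lists passed in no comparison, and the lists' medians for V2LHS_62675 minus empty vector were 0.03 and -0.04, beside 0.02 over all genes.

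Among 33 absorptive transporters and ion-handling genes, 3 fell in V2LHS_62675 against empty vector and 0 rose, where 2.21% and 1.54% of features were called. The ferric reductase CYBRD1 went from 9.16, 8.82 and 8.98 to 8.01, 8.09 and 7.87 (-1.0, adjusted p = 0.0067). The sodium-proton exchanger SLC9A2 went from 8.66, 8.44 and 8.37 to 7.45, 7.75 and 7.60 (-0.89, adjusted p = 0.00892). The exporter of conjugated bile acids ABCC3 differed by -1.06 (adjusted p = 0.0291). CYBRD1 and SLC9A2 were also lower in V2LHS_62675 than in V2LHS_62673 (-1.09, adjusted p = 0.00889, and -0.90, adjusted p = 0.0178). Wild type, set against the same empty vector clones, had lower CYBRD1 (-1.14, adjusted p = 0.00625) and ABCC3 (-1.16, adjusted p = 0.0243). So CYBRD1 and ABCC3, like SLC51B with the opposite sign, were on the same side of the empty vector clones in untransfected cells and in this LMNB1 knockdown clone, which share those controls. Of 18 genes of lipid, bile acid and xenobiotic handling, retinol saturase RETSAT fell in V2LHS_62673 (-0.52, adjusted p = 0.0368) and the acyl-CoA synthetase ACSL5 fell in V2LHS_62675 (-0.52, adjusted p = 0.0399), both against empty vector. The shares of features called lower there were 0.688% and 2.21%. RETSAT was also below every empty vector clone (8.98, 9.14 and 9.04) in wild type (8.80) and in V2LHS_62675 (8.39, 8.72 and 8.69). ACSL5 in wild type, at 10.28, was also below every empty vector clone (-0.47, adjusted p = 0.0546).

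Of 31 other intestinal transcription factors, 3 fell in V2LHS_62675 against empty vector, where 2.21% of features were called lower: PPARGC1A, a metabolic coactivator (-1.54, adjusted p = 0.00558), HNF4G, the paralogue of HNF4A (-1.10, adjusted p = 0.0106), and SATB1, a chromatin organiser (-1.46, adjusted p = 0.0113). HNF4G was at 5.98 in wild type and 6.44, 6.90 and 6.44 in the empty vector clones. It was 6.01, 6.39 and 6.34 in clones 8, 9 and 12, and 5.54, 5.52 and 5.41 in V2LHS_62675. Wild type and clone 8 were thus also below every empty vector clone for HNF4G. SATB1 was at 6.67 in wild type and 6.24, 6.98 and 6.78 in the empty vector clones. It was 7.45, 7.95 and 7.62 in clones 8, 9 and 12, and 5.38, 4.95 and 5.29 in V2LHS_62675. SATB1 thus rose in V2LHS_62673 against empty vector (1.11, adjusted p = 0.0267), and the 2 constructs differed by -2.58 (adjusted p = 0.00117). In V2LHS_62675 the levels of SATB1, HNF4G and PPARGC1A (5.44 to 5.65) all lay under the filter level of 5.96, so the sizes of their differences rest on a low signal whose distance from background is unknown. Between the constructs V2LHS_62675 was also lower for PPARGC1A (-1.15, adjusted p = 0.0312), HNF4G (-0.87, adjusted p = 0.0416) and the epithelial ETS factor EHF (-1.12, adjusted p = 0.0225). PPARG, a nuclear receptor of differentiated colon cells, fell in V2LHS_62673 (-0.93, adjusted p = 0.0281) and was lower in wild type (-0.85, adjusted p = 0.0448), both against empty vector. PPARG was also lower in V2LHS_62675 (9.10, 9.13 and 8.98) than in every empty vector clone (9.81, 9.88 and 9.86). EHF in clone 8, at 8.66, was below every V2LHS_62675 array (10.19, 9.63 and 9.60), while clones 9 and 12 were at 10.71 and 11.15. Apart from tested calls, 26 of the 31 differences of V2LHS_62675 minus empty vector were below 0, with a median of -0.18 beside 0.02 over all genes, of which 56.4% were above 0, and 27 and 25 were below 0 under quantile normalization and median centring. Wild type minus the same empty vector clones had 24 of the 31 below 0, with a median of -0.12 beside -0.01 (20 under both scalings). CDX1 and CDX2 were at -0.03 and 0.09 in V2LHS_62675 minus empty vector, and at -0.02 and 0.28 in wild type minus empty vector.

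Several of these calls were lost when 1 array was left out or another setting was used. Without empty vector clone 3, MISP, MUC13, CYBRD1, ABCC3, ACSL5, HNF4G and SATB1 no longer passed in V2LHS_62675 against empty vector, with adjusted p from 0.0518 to 0.115. Without clone 2 MISP, MUC13, ABCC3 and ACSL5 did not (0.0763 to 0.112), and without clone 1 ACSL5 did not (0.0582). In V2LHS_62673 against empty vector RETSAT, PPARG and SATB1 were lost without empty vector clone 2 (0.195, 0.176 and 0.0748) or 3 (0.205, 0.243 and 0.222), and RETSAT without clone 9 (0.0638) or 12 (0.0628) of V2LHS_62673. In wild type ABCC3 and PPARG were lost without empty vector clone 2 (0.0996 and 0.132) or 3 (0.104 and 0.153), and CYBRD1 without 3 (0.0659). Between the constructs EHF and PPARGC1A were lost without empty vector clone 2 (0.0615 and 0.0724) or 3 (0.0736 and 0.085), and HNF4G without empty vector clone 3 (0.0891) or V2LHS_62675 array 3 (0.0715). SLC9A2 and PPARGC1A in V2LHS_62675 against empty vector, and SATB1, SLC9A2 and CYBRD1 between the constructs, passed in every omission and every other setting tried without clone 8.

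Among the other settings without clone 8, PPARG in wild type was lost in 7 of 9, with adjusted p from 0.0516 (array weights) to 0.0781 (each array as a sample). ABCC3 in wild type was lost in 4 of 9 (0.0513 to 0.059), and in V2LHS_62675 under quantile normalization (0.0565) and the trended prior (0.0667). In V2LHS_62673, RETSAT was lost in 4 of 9 (0.0529 to 0.105), SATB1 in 4 of 8 (0.0626 to 0.0752) and PPARG in 2 of 9 (0.0558 and 0.0583). In V2LHS_62675, MUC13 was lost with the trended prior (0.12) and ACSL5 under median centring (0.0529) and no filter (0.0546). Between the constructs, HNF4G was lost under quantile normalization (0.0923), median centring (0.0693) and no filter (0.0575), and PPARGC1A under quantile normalization (0.0605) and median centring (0.0529).

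**Figure D3:**
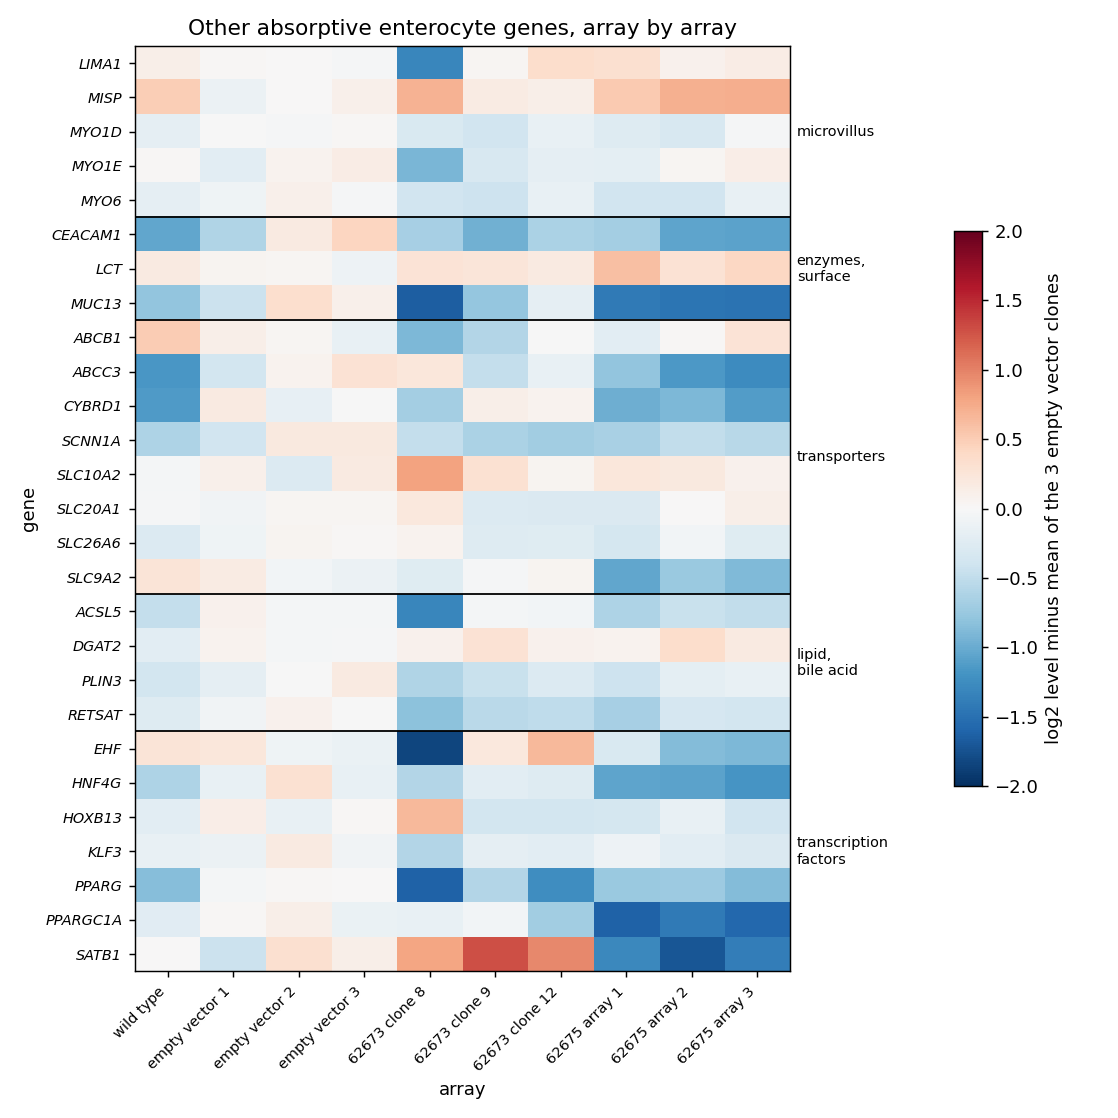
Log2 level minus the mean of the 3 empty vector clones (colour scale, red higher and blue lower) for the 27 genes named by rule from the 5 further enterocyte lists (rows, grouped by list) in each of the 10 arrays (columns). SATB1 is red in the V2LHS_62673 clones and blue in the V2LHS_62675 arrays, and CYBRD1 and ABCC3 are blue in wild type and in V2LHS_62675.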

How the data were processed

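Total RNA depleted of ribosomal RNA was labelled with biotin and hybridised to 1-colour arrays, per the labels' protocols. The authors deposited 1 value per probe and array on a log2 scale, the base being read here from the range of the values. The array software, background correction and normalization were not given in the sources used here, and could compress low levels. Of 22011 probes, 14432 named 1 gene, 2408 several and 5171 none in the platform annotation, and 14404 of the 14432 matched a reference gene ID. Where a gene had several such probes (197 genes), the brightest on average stood for it.

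Genes with a mean under 5.96, the 25th percentile, were left out, and 1 probe shared by LMNB1 and PCIF1 was kept as a check, which left 11199 features. Differences were tested two-sided with limma 3.58.1 in R 4.3.3 (lmFit and eBayes, Benjamini-Hochberg over all features, threshold 0.05), after tests on simulated data. Knockdown clones were compared with negative controls (empty vector and wild type). The other 4 comparisons came from 1 fit of the 4 groups over 8 samples, so wild type and V2LHS_62675, with 1 sample each, were assumed to vary like the others. The sample titles call the V2LHS_62675 and empty vector arrays biological replicates, and give the empty vector arrays no clone number. They do not say whether these came from separate cultures, so p-values measure the spread between these samples. The members and lists were chosen with earlier results of these data known. The genes named outside the members were those of each list with the smallest p in the comparison of knockdown clones with negative controls, or past the threshold in any comparison, with or without clone 8. Alternatives were the scaling, filter, probe choice, prior, weights, handling of the V2LHS_62675 arrays, controls and omission of each array. Repeating them without clone 8 was added after seeing the data. Precision is limited by how few arrays there are.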

Additional observations from a re-analysis of the deposited data

Results flagged for a closer look

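In groups of 4 samples, 6 values stood apart from the other 3 by a gap of more than 0.829 of the group's range, among 70 groups looked at. No chance rate is set beside them, because 27 of the genes were named from tests on these same data. Clone 8 also lay outside the range of the other 7 samples for 81.6% of genes. Clone 8 was high among the knockdown clones for ANKS4B (6.63), CDX1 (7.16), HOXB13 (7.89) and SLC26A6 (8.62), and low for KLF3 (8.68). Wild type was low among the negative controls for PPARG (9.00).

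The constructs differed, by limma's test of V2LHS_62675 minus V2LHS_62673 without clone 8, for VIL1 (0.68, adjusted p = 0.0391), SATB1 (-2.58), CYBRD1 (-1.09), EHF (-1.12), HNF4G (-0.87), PPARGC1A (-1.15) and SLC9A2 (-0.90). With clone 8 included, each array of one construct lay on the opposite side of the empty vector mean from each array of the other for VIL1 (0.62 between the constructs) and for SATB1 (-2.47). In that setting neither difference passed the adjusted threshold, and the opposite sides themselves were not tested. For VIL1 the first V2LHS_62675 array, at 8.63, was barely above the empty vector mean of 8.62. For EHF clone 8, at 8.66, lay below every V2LHS_62675 array (10.19, 9.63 and 9.60), unlike clones 9 and 12 (10.71 and 11.15).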

How the results depend on the processing

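With all clones, limma called 0 genes in each of the 5 comparisons. For knockdown clones minus controls the count was 1 under quantile normalization, 1 with a trended robust prior, 1 with clone as a random block, 2 with each array as a sample, 3 against empty vector clones alone and 7 with array weights, and 0 to 3 when single arrays were left out. Array weights called 338 genes in V2LHS_62673 and 472 in V2LHS_62675 against empty vector, 479 in wild type and 371 between the constructs, with 1 member in each of these comparisons. Each array as a sample called 6, 59 and 15 genes in V2LHS_62673, in V2LHS_62675 and between the constructs, and the random block 5, 1 and 4. No filter called 1 gene in wild type. Leaving out single arrays gave 0 to 111, 0 to 419, 0 to 400 and 0 to 241 genes in V2LHS_62673, V2LHS_62675, wild type and between the constructs, with 0 to 1 members in wild type and between the constructs; the highest counts were without clone 8.

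Same-numbered arrays of V2LHS_62675 and empty vector had deviations that correlated at 0.03, -0.15 and -0.23, so the numbers do not pair them; with a replicate block the 6 arrays gave 944 genes and 1 member.

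Without clone 8, V2LHS_62675 against empty vector had 2 members called with each array as a sample, where 1144 of 11199 features were called. A random block also called 2, where 1356 features were called. Both settings enter the 3 arrays of that 1 clone singly. When an array was left out 0 to 2 were called, as in V2LHS_62673 (0 to 2). The features called then spanned 70 to 1017 and 4 to 493. ANKS4B passed in 2 of these alternatives for V2LHS_62675, and nothing is read from its place. The wild type call of SLC51B fell to 0 members with the trended prior, each array as a sample or the random block, and the VIL1 call to 0 with quantile normalization, median centring or no filter; leaving out arrays gave 0 to 1 for both.

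Small member differences turned sign. In knockdown minus controls, CDX1 became -0.02 (quantile), CDX2 0.01 (empty vector alone), and SLC51B 0.30 (array weights), 0.03 (each array) and 0.08 (empty vector alone); omissions spanned -0.03 to 0.15, -0.14 to 0.01 and -0.44 to 0.10. In V2LHS_62673, CDX1 became -0.0021 (quantile) and -0.02 (weights), CDX2 0.06 (quantile) and SLC51B 0.13 (weights); omissions spanned -0.04 to 0.23, -0.10 to 0.07 and -0.45 to 0.18, and -0.0004 to 0.23 for EZR. In V2LHS_62675, omissions spanned -0.03 to 0.11 for USH1C and -0.12 to 0.03 for CDX1. In wild type USH1C became 0.01 (centring) and CDX1 0.01 (quantile) and 0.01 (centring); omissions spanned -0.11 to 0.03 and -0.11 to 0.04. Between the constructs CDH17 became -0.04, USH1C 0.02 and CDX1 0.01 (weights), and CDX2 -0.01 (quantile); omissions spanned -0.30 to 0.0003 for USH1C and -0.26 to 0.01 for CDX1. The cause was not tested. A filter at the median of all probes left out ANKS4B, USH1C and CDX1, which then gave no value. Low signal limits ANKS4B and USH1C, and SATB1, HNF4G and PPARGC1A in V2LHS_62675, and groups of 1 to 3 samples limit every test.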
